A study of Mus musculus with 12 samples.

Results

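The livers of floxed mice on the HF (high-fat) diet were compared with the livers of macrophage TSP1 knockout mice on the LF (low-fat) diet. The comparison holds the 3 HF floxed and the 3 LF knockout libraries, 6 of the 12 RNA-seq libraries of the series, and every gene with a name in the files. Of 16239 named genes, 12587 passed a filter on low counts and were tested. All mice were of strain 129/B6, 10 months old, and had been on their diet for 8 months. HF floxed mice carried the floxed TSP1 gene, which the labels also call WT. LF knockout mice were labelled as lacking TSP1 in macrophages. LF floxed and HF knockout libraries, 3 each, are given beside them where they help to place a level. The promoter that drove Cre in the knockout is not given in the sources used here. The groups differ in both diet and genotype, so the effects of the 2 cannot be told apart within this comparison. The question it addresses is how far the liver of a knockout on LF resembles that of a floxed mouse on HF.

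Thrombospondin 1 (TSP1) is a secreted matrix protein that binds the receptors CD36 and CD47 and can release active TGF-beta from its latent complex. In a liver that stores fat, hepatocytes make proteins that coat and fuse lipid droplets. Macrophages recruited from blood monocytes take up lipid and present antigen on MHC class II, and stellate cells lay down collagen.

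Each library held 16131506 to 16536016 estimated counts, of which named genes took 14059925 to 14307226 in HF floxed and 14109648 to 14487730 in LF knockout libraries. No label names an animal, and the spread behind each p-value is that of the libraries, some of which may be technical. HF floxed replicates 1 and 2 were close to each other, with a root mean square log2 difference of 0.299 over 10675 genes, and so were LF knockout replicates 2 and 3 (0.255). The other pairs within these groups differed by 0.578 to 0.679. Both close pairs differed by more than sampling noise (chi-square per degree of freedom 8.54 and 2.81) and were kept as separate libraries. If either pair is 1 animal, the p-values below are too small.

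Thbs1 (gene 21825, chromosome 2), which encodes TSP1, stood at 0.75, 0.75 and 0.31 FPKM in HF floxed libraries, against 0.08, 0.55 and 0.55 FPKM in LF knockout libraries. It held 0.11, 0.06 and 0.07 FPKM in LF floxed and 0.16, 1.42 and 1.63 FPKM in HF knockout libraries. LF knockout replicate 1 lay at the level of LF floxed, while replicates 2 and 3 lay among the HF floxed libraries, so the groups overlapped. The log2 difference, HF floxed minus LF knockout, was 0.44 (SE 0.74, 95% interval -1.17 to 2.06, adjusted p = 1 in edgeR). An exact two-sided permutation test of log2(FPKM + 1) gave p = 0.5, where 3 against 3 can give no less than 0.1. Without LF knockout replicate 1 the sign turned, at -0.06. No LF knockout library lay below the LF floxed range. The labels place the deletion in macrophages, and RNA of whole liver cannot check it.

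Across all genes, the libraries of HF floxed and LF knockout livers were nearer to each other than HF floxed libraries were to LF floxed ones. The median root mean square log2 difference over 9 pairs was 0.546 between HF floxed and LF knockout libraries. It was 0.772 between HF floxed and LF floxed libraries and 0.573 between LF knockout and LF floxed libraries. HF floxed replicate 3 lay closest to LF knockout replicates 2 and 3, at 0.425 and 0.436, which is nearer than to its own group (0.654 and 0.679). LF knockout replicate 1 lay closest to LF floxed replicate 2, at 0.398. On the first principal component, with 36.7% of the variance, HF floxed libraries stood at 30.4, 34.3 and -24.7, against -27.4, -10.7 and -10.4 for LF knockout libraries. HF floxed replicates 1 and 2 were thus apart from all LF knockout libraries, and replicate 3 was among them. On the second component, with 17.9% of the variance, HF floxed libraries stood at 30.3, 31.9 and 16.3, and LF knockout replicates 2 and 3 at 27.6 each. LF knockout replicate 1 stood at -23.2, among the LF floxed libraries at -19.6, -33.2 and -28.6.

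**Figure D1:**
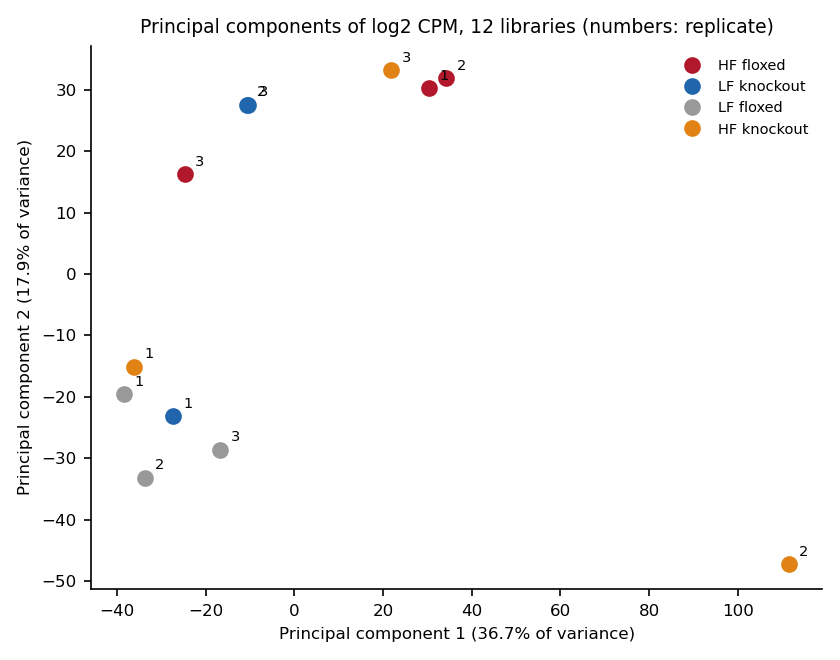
First 2 principal components of log2 CPM in the 12 libraries, coloured by group and numbered by replicate, with the share of variance on each axis. LF knockout replicates 2 and 3, drawn on top of each other, lie with the HF floxed libraries on the second component (HF floxed 16.3 to 31.9, LF knockout replicates 2 and 3 at 27.6), and apart from HF floxed replicates 1 and 2 on the first.

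No gene passed a false discovery rate of 5% between HF floxed and LF knockout livers (edgeR quasi-likelihood test, smallest adjusted p = 0.409, 0.0% of 12587 genes called). Without correction, 541 genes (4.3%) had p under 0.05, 366 of them higher (2.91%) and 175 lower (1.39%) in HF floxed. At that threshold 629 of the 12587 genes would be expected if no gene differed, so 541 is no more than that. The number called was 14 with DESeq2. It was 1111 in limma voom with sample weights, where the near-identical libraries weighed most (1.8 and 2.74 for HF floxed replicates 1 and 2, 3.61 and 3.43 for LF knockout replicates 2 and 3, 0.51 for HF floxed replicate 3 and 0.47 for LF knockout replicate 1). With each near-identical pair averaged to 1 library, no gene was called and 119 had an unadjusted p under 0.05. A fit of the 6 libraries alone called 1 gene, Foxq1. That count was 540 without HF floxed replicate 3 and 11 without LF knockout replicate 1. The 3 HF floxed values all lay above or all below the 3 LF knockout values in 1760 genes, 975 higher (7.75%) and 785 lower (6.24%) in HF floxed. These counts are on CPM, which is counts scaled to library size with TMM factors, and on FPKM the split was 978 higher and 398 lower. For 7658 genes (60.8%) the 95% interval of the difference lay within 2-fold either way, so a larger difference is outside the interval for these genes only. The median size of the log2 difference was 0.19. In comparisons that share libraries with this one, it was 0.28 between HF floxed and LF floxed and 0.22 between LF knockout and LF floxed.

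Some genes stood at levels in LF knockout livers that were nearer to HF floxed than to LF floxed livers. The 6 most distant from LF floxed on the upper side were Cidea, Cyp2b9, Orm3, Plin4, Npnt and F13a1. They were chosen for their distance from the LF floxed libraries, so their levels are a description with no test of that distance. In 357 genes all HF floxed and LF knockout libraries lay above the LF floxed ones, with a log2 difference between HF floxed and LF knockout under 1 in size. In 433 genes they all lay below. Both counts cover only protein-coding genes without clone or serial names, among the 12587 genes tested. How many genes would split this way without a difference between groups was not tested. Cidea, a protein that enlarges lipid droplets, held 68.17, 60.63 and 27.37 FPKM in HF floxed libraries, against 0.61, 47.22 and 52.43 FPKM in LF knockout libraries. LF floxed libraries held at most 0.11 FPKM and HF knockout libraries 0, 7.89 and 2.32 FPKM. LF knockout replicates 2 and 3 thus held Cidea at the level of HF floxed livers, and replicate 1 far below them. The log2 difference between HF floxed and LF knockout was 0.55, with a 95% interval from -1.86 to 2.96. It turned to -0.05 without LF knockout replicate 1 and was 2.00 in limma on log2(FPKM + 0.1).

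Plin4, a perilipin of the droplet surface, held 15.93, 16.28 and 2.05 FPKM in HF floxed libraries, against 0.83, 7.95 and 7.6 FPKM in LF knockout libraries and at most 0.31 FPKM in LF floxed ones. Here HF floxed replicate 3 lay below LF knockout replicates 2 and 3. Cidec, a relative of Cidea, showed the same order, at 90.8, 88.3 and 9.68 FPKM in HF floxed and 8.62, 29.79 and 28.53 FPKM in LF knockout libraries. Its LF floxed libraries held 0.53, 1.39 and 0.89 FPKM. Fitm1, which takes part in forming lipid droplets, held 80.08, 72.89 and 92.14 FPKM in HF floxed libraries, against 46.66, 97.77 and 101.36 FPKM in LF knockout and 15.15, 23.36 and 19.41 FPKM in LF floxed libraries. Both groups lay clear of LF floxed for Fitm1 and overlapped each other. The fatty acid translocase and TSP1 receptor Cd36 held 59.12, 68.27 and 24.81 FPKM in HF floxed libraries, against 16.39, 36.02 and 36.17 FPKM in LF knockout libraries, with 1.85, 3.91 and 3.06 FPKM in LF floxed libraries. Its log2 difference between HF floxed and LF knockout was 0.66 (SE 0.62, edgeR adjusted p = 1), and the groups overlapped. The list of lipid droplet proteins and lipases as a whole, with 19 of 20 members tested, had a median log2 difference of 0.13, 12 members being higher in HF floxed, where 51.4% of all genes were. The median was 0.22 without LF knockout replicate 1, and it was -0.01 or 0.31 when HF floxed replicate 1 or 3 was left out. The only member with an unadjusted p under 0.05 was Hilpda, an inhibitor of the lipase Pnpla2. Of all genes, 2.91% had such a p and were higher in HF floxed. Hilpda held 6.24, 5.37 and 2.09 FPKM in HF floxed and 1.65, 2.05 and 1.39 FPKM in LF knockout libraries (log2 1.29, SE 0.5, edgeR unadjusted p = 0.0249).

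Genes of peroxisomal and mitochondrial fat oxidation, targets of the lipid sensor PPARA, had a median difference near 0, with members on both sides. Of 24 members, all tested, 9 were higher and 15 lower in HF floxed, with a median of -0.06, a range from -1.51 to 1.17 and none at an unadjusted p under 0.05. On CPM, 6 had groups that did not overlap and were lower, against 6.24% of all genes, and 1 was higher. Leaving out any 1 of the 6 libraries kept this median between -0.10 and -0.01. Against LF floxed, the median was 0.22 in HF floxed and 0.18 in LF knockout, 2 comparisons that share the LF floxed libraries. Acot1, an acyl-CoA thioesterase, held 8.86, 7.49 and 8.53 FPKM in HF floxed libraries, against 25.26, 11.34 and 10.67 FPKM in LF knockout libraries (log2 -1.03, SE 0.56). All HF floxed libraries were below all LF knockout libraries for Acot1, and LF knockout replicate 1 was highest. Without that library the difference was -0.48. Vnn1, a pantetheinase that PPARA controls, held 70.04, 71.85 and 40.4 FPKM in HF floxed libraries, against 35.06, 53.9 and 57.35 FPKM in LF knockout and 2.85, 12.19 and 5.86 FPKM in LF floxed libraries. HF floxed and LF knockout libraries overlapped for Vnn1, and all lay above the LF floxed ones.

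Cyp2b9 (gene 13094, chromosome 7), a cytochrome P450 that female mouse livers express more, held 44.31, 46.19 and 36.0 FPKM in HF floxed libraries, against 8.47, 96.87 and 94.5 FPKM in LF knockout libraries. It held 0.71, 0.43 and 0.35 FPKM in LF floxed and 45.66, 115.79 and 71.18 FPKM in HF knockout libraries. LF knockout replicates 2 and 3 were above every HF floxed library and replicate 1 below, and the log2 difference was -0.81 (95% interval -2.2 to 0.59). Without LF knockout replicate 1 it was -1.36, and in the fit of the compared libraries without that library Cyp2b9 was called (edgeR adjusted p = 0.0223). Its neighbour Cyp2b13 held 3.77, 5.08 and 3.34 FPKM in HF floxed libraries, against 0.19, 13.39 and 13.92 FPKM in LF knockout libraries, and was listed at 0 in LF floxed libraries. The same LF knockout library was low for both genes. Cyp2b13 had a log2 difference of -1.27, which was -1.86 without that library and called in the fit of the compared libraries without it (edgeR adjusted p = 0.0154). Their start regions are shown because the pair has nearly the same sequence there and was low in the same library. Over 300 bases, from 250 before the start of the gene, 298 bases (99.3%) were the same. The differences, counted from 1 at the 5′ end of that window with the base of Cyp2b9 first, were T48C and C104T. The stretch from position 28 to position 124 reads as follows, in RefSeq's sequence of GRCm38.p6, with the bases that differ in capitals. Both stretches lie on the plus strand, at chr7:26173186-26173282 for Cyp2b9 and chr7:26061272-26061368 for Cyp2b13.
Cyp2b9: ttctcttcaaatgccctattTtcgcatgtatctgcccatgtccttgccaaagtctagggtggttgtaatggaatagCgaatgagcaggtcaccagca
Cyp2b13: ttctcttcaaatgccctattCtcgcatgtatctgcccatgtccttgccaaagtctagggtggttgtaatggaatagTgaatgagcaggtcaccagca
As the genes are near-identical copies, the authors' counting may have divided reads between them, and neither level is certain.

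**Figure D2:**
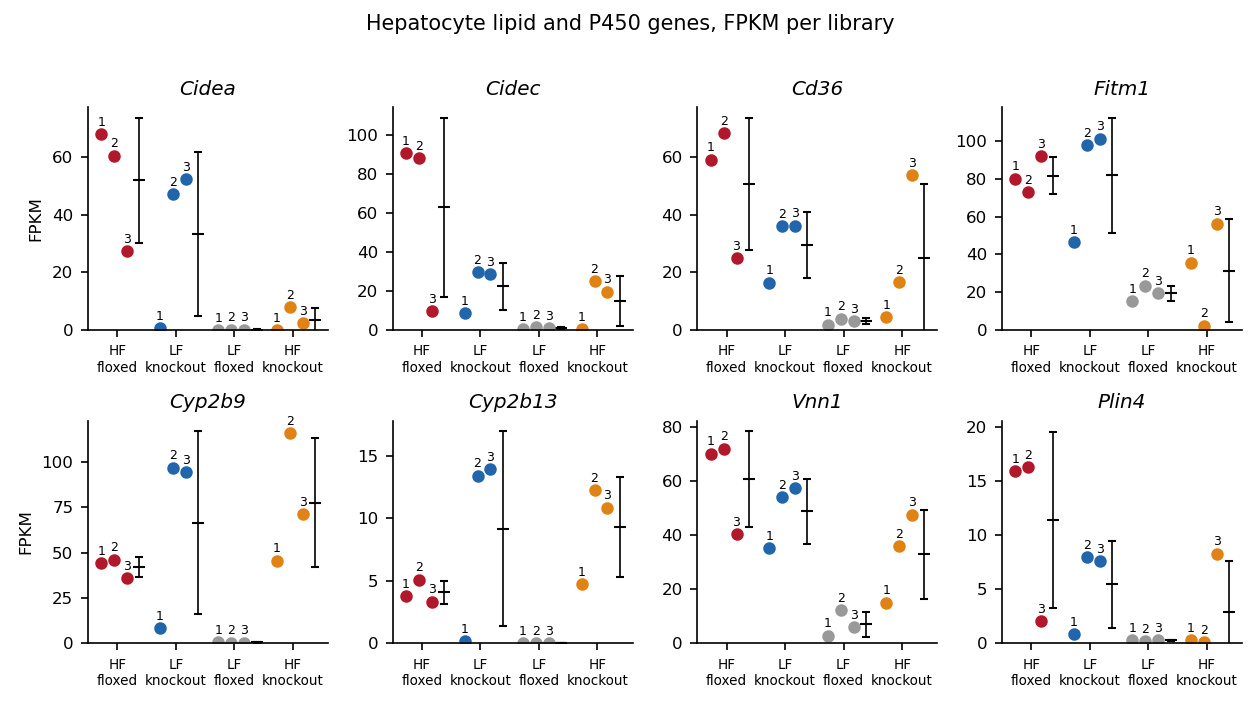
FPKM of 8 hepatocyte genes of lipid storage and uptake, PPARA control and the P450 family in each library (points, numbered by replicate) with the group's mean and SD beside them (dash and bar, 3 libraries a group, axes from 0, SD bars cut at 0). LF knockout replicates 2 and 3 lie with or above the HF floxed libraries for Cidea, Fitm1, Cyp2b9 and Cyp2b13, and LF knockout replicate 1 lies lower, at 0.61 FPKM for Cidea.

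Some but not all of the other genes of this kind showed a similar split. Orm3, an acute phase glycoprotein, held 7.65, 5.99 and 10.22 FPKM in HF floxed libraries, against 1.15, 14.83 and 16.68 FPKM in LF knockout libraries and at most 0.58 FPKM in LF floxed ones. Npnt, a matrix ligand of integrins, and F13a1, the A chain of coagulation factor XIII, were low, at 0.17 to 1.26 and 0.13 to 0.45 FPKM in HF floxed libraries, against 0.11 to 0.66 and 0.11 to 0.27 FPKM in LF knockout libraries. Among the genes below LF floxed, Tff3, a secreted trefoil peptide, held 1.99, 1.69 and 0.91 FPKM in HF floxed libraries, against 7.03, 0.15 and 0.31 FPKM in LF knockout libraries, where LF floxed libraries held 10.74, 17.48 and 25.47 FPKM. Cadm4, a cell adhesion molecule, held 0.64, 0.79 and 1.87 FPKM in HF floxed libraries, against 1.42, 0.94 and 1.23 FPKM in LF knockout and 4.3, 4.01 and 4.24 FPKM in LF floxed libraries. For Cadm4 the 3 LF knockout libraries were close to each other, and all lay far below LF floxed. Adgrf1, Srgap3, H1fx and Hsbp1l1 had log2 differences between HF floxed and LF knockout of -0.48, -0.6, 0.89 and 0.53, and all were under 1.5 FPKM in both groups. Adgrf1 was -2.45 without HF floxed replicate 3 and 0.37 without LF knockout replicate 1, Srgap3 was 0.06 without LF knockout replicate 1, H1fx was 0.36 without HF floxed replicate 3, and Hsbp1l1 was 0.89 and 0.83 without these libraries. Single libraries also moved the others, Orm3 to -1.03, Plin4 to 0.40, Npnt to 0.30, F13a1 to 0.21 and Tff3 to 2.54 without LF knockout replicate 1, and Cadm4 to -0.94 without HF floxed replicate 3.

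Genes of the interferon response were another group at which the 2 livers were close. All 28 members were tested, and 20 were higher in HF floxed, with a median log2 difference of 0.21. An unadjusted p under 0.05 was reached by 1 member, against 2.91% of all genes in that direction. Relative to the LF floxed mean, the median member stood at 1.4, 1.41 and 0.49 on the log2 scale in HF floxed libraries, against -0.03, 1.15 and 1.21 in LF knockout libraries. LF knockout replicate 1 was again at the LF floxed level, and without it the median between HF floxed and LF knockout turned to -0.09. The median was 0.41 without HF floxed replicate 3, 0.09 without HF floxed replicate 1 or 2, and 0.39 and 0.40 without LF knockout replicates 2 and 3. The interferon-inducible GTPase Igtp held 36.46, 41.31 and 15.47 FPKM in HF floxed libraries, against 14.74, 37.69 and 33.67 FPKM in LF knockout and 10.84, 11.77 and 11.14 FPKM in LF floxed libraries. HF floxed replicate 3 was the lowest of its group for Igtp, and the groups overlapped. The member with the unadjusted p under 0.05 was the chemokine gene Cxcl9, at 12.27, 12.77 and 6.44 FPKM in HF floxed and 3.4, 5.85 and 6.11 FPKM in LF knockout libraries (log2 0.93, SE 0.41, edgeR unadjusted p = 0.043).

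Genes of MHC class II antigen presentation had one of the largest median differences of the 41 gene lists examined. Of 10 members 8 were tested, and all 8 were higher in HF floxed, with a median log2 difference of 1.30 where the median over all genes was 0.01. An unadjusted p under 0.05 was reached by 7, against 2.91% of all genes in that direction, and 7 had groups that did not overlap on CPM, against 7.75% of all genes. None passed correction over all genes. H2-Aa, the alpha chain of I-A, held 93.07, 92.25 and 55.6 FPKM in HF floxed libraries, against 16.11, 36.14 and 38.01 FPKM in LF knockout libraries. LF floxed libraries held 11.89, 26.7 and 21.32 FPKM and HF knockout libraries 27.75, 49.57 and 34.21 FPKM. Each HF floxed library lay above every LF knockout library, whose replicates 2 and 3 lay a little above LF floxed. The log2 difference was 1.32 (SE 0.33, 95% interval 0.59 to 2.05, edgeR unadjusted p = 0.00207, adjusted p = 1). In bulk liver, fewer cells of a type and less RNA per cell cannot be told apart.

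H2-Eb1, the beta chain of I-E, held 43.29, 37.6 and 24.04 FPKM in HF floxed libraries, against 5.26, 16.7 and 16.92 FPKM in LF knockout libraries (log2 1.34, SE 0.42). Cd74, the invariant chain that escorts class II molecules, held 232.42, 203.53 and 135.05 FPKM in HF floxed libraries, against 40.15, 91.27 and 98.9 FPKM in LF knockout libraries (log2 1.21, SE 0.35). H2-DMb1, part of the complex that loads peptide, held 12.24, 11.86 and 6.42 FPKM in HF floxed libraries, against 2.19, 4.22 and 3.79 FPKM in LF knockout libraries (log2 1.41, SE 0.34). In all of these genes the groups did not overlap and HF floxed replicate 3 was the lowest of its group. Ciita, the coactivator that class II promoters need, held 0.62, 0.59 and 0.29 FPKM in HF floxed libraries, against 0.13, 0.16 and 0.26 FPKM in LF knockout libraries (log2 1.29, SE 0.56). Relative to the LF floxed mean, the median class II gene stood at 1.93, 1.66 and 1.35 on the log2 scale in HF floxed libraries, against -0.32, 0.55 and 0.75 in LF knockout libraries. The list's median was 0.99 without LF knockout replicate 1 and 1.43 without HF floxed replicate 3, and it stayed within 1.5 times of 1.30 without any 1 of the 6 libraries. Against LF floxed, it was 1.66 in HF floxed and 0.36 in LF knockout.

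The start regions of 3 of these genes are shown since the genes were all higher in HF floxed and class II promoters share a module known as the W, X and Y boxes, the last of which reads GATTGG. Of 6 class II genes looked up, 4 had an entry in the RefSeq promoter table. The 110 bases before the start of each gene are given for GRCm38.p6, on the gene's strand, with the motif matches in capitals. H2-Aa lies on the minus strand at chr17:34287824-34287933, H2-Eb1 on the plus strand at chr17:34305757-34305866 and H2-DMb1 on the plus strand at chr17:34153081-34153190.
H2-Aa: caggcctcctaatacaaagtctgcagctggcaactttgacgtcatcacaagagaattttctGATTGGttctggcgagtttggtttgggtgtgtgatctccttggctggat
H2-Eb1: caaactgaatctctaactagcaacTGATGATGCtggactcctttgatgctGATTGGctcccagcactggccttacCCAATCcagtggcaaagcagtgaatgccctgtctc
H2-DMb1: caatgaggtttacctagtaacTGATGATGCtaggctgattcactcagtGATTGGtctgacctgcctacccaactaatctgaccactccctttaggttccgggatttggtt
Both motifs were chosen after the sequences were seen and searched on both strands. GATTGG began 49, 60 and 62 bases before the start of H2-Aa, H2-Eb1 and H2-DMb1, and H2-Eb1 had a second match on the other strand, written CCAATC. The longer TGATGATGC began 86 bases before the start of H2-Eb1 and 89 before that of H2-DMb1. In the 32851 windows of this length in the table, GATTGG was present in 9.25% and TGATGATGC in 0.0883%. Neither motif was in the 2 windows of H2-DMa, which held 6.61, 6.18 and 3.86 FPKM in HF floxed libraries, against 2.1, 3.49 and 3.48 FPKM in LF knockout libraries.

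Markers of monocytes and lipid-associated macrophages were higher in HF floxed livers as well. All 16 were tested and 15 were higher, with a median log2 difference of 1.28. Of these, 5 had an unadjusted p under 0.05, against 2.91% of all genes in that direction, and 10 had groups that did not overlap on CPM, against 7.75%. Trem2, the lipid receptor that marks these macrophages, held 6.17, 7.56 and 2.38 FPKM in HF floxed libraries, against 0.31, 0.76 and 1.31 FPKM in LF knockout libraries. LF floxed libraries held 0.25, 0.78 and 2.07 FPKM and HF knockout libraries 2.11, 1.79 and 6.63 FPKM. HF floxed replicate 3 lay above every LF knockout library but near LF floxed replicate 3. The log2 difference was 2.65 (SE 0.75, 95% interval 1.02 to 4.29, edgeR unadjusted p = 0.00419). Gpnmb, a lysosomal glycoprotein, held 5.7, 4.39 and 1.47 FPKM in HF floxed libraries, against 0.05, 0.72 and 0.75 FPKM in LF knockout libraries (log2 2.81, SE 0.84), with no overlap. Lgals3, a galectin, held 31.38, 29.64 and 5.54 FPKM in HF floxed libraries, against 2.31, 4.63 and 4.17 FPKM in LF knockout libraries (log2 2.45, SE 0.79). For Lgals3 HF floxed replicate 3 was close to the LF knockout libraries. LF floxed libraries held 1.45, 2.2 and 14.81 FPKM of Lgals3, so LF floxed replicate 3 lay above HF floxed replicate 3. Mmp12, the macrophage elastase, held 4.52, 3.77 and 0.68 FPKM in HF floxed libraries, against 0.22, 0.69 and 0.45 FPKM in LF knockout libraries, so that HF floxed replicate 3 fell within the LF knockout range.

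**Figure D3:**
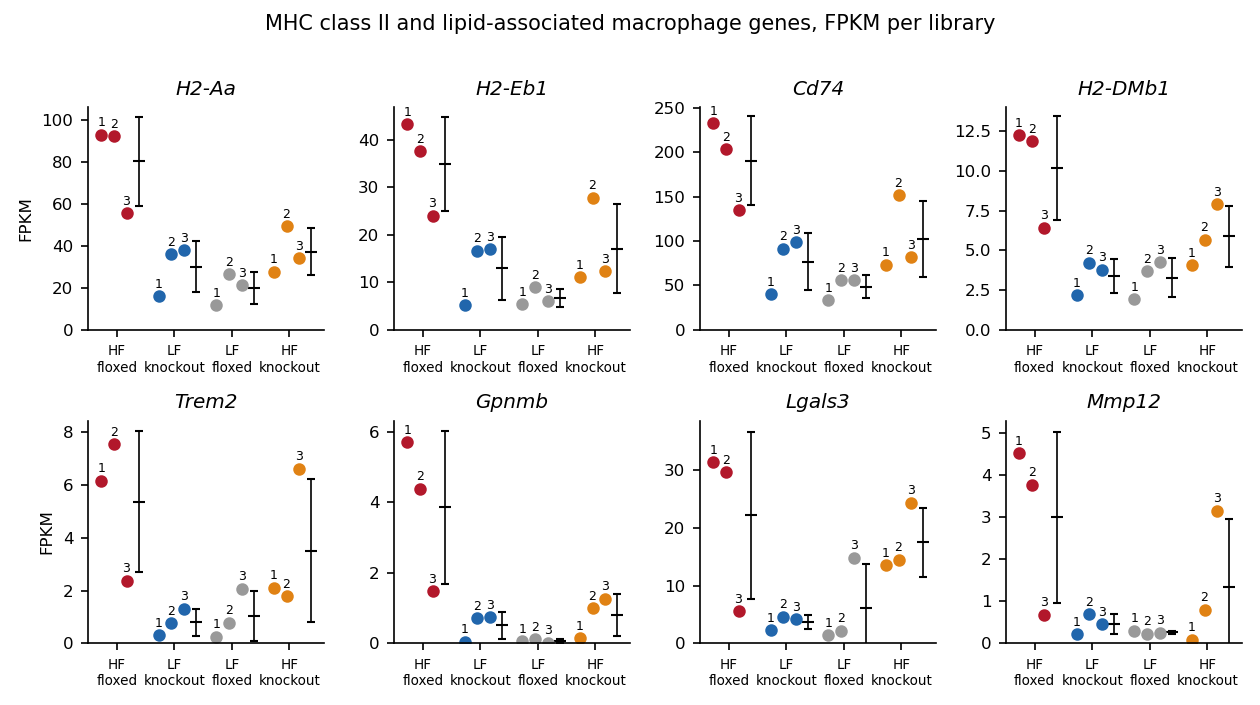
FPKM of 4 MHC class II genes and 4 macrophage genes in each library (points, numbered by replicate) with the group's mean and SD beside them (dash and bar, 3 libraries a group, axes from 0, SD bars cut at 0). For the class II genes all HF floxed libraries lie above all LF knockout libraries, and for Lgals3 and Mmp12 HF floxed replicate 3 (5.54 and 0.68 FPKM) lies near the LF knockout libraries.

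The smallest p among the higher genes included other markers of myeloid cells. Cd207, a lectin of Langerhans cells and some dendritic cells, held 4.38, 4.88 and 2.75 FPKM in HF floxed libraries, against 0.46, 0.92 and 1.0 FPKM in LF knockout libraries (log2 2.23, SE 0.56, edgeR unadjusted p = 0.00195). Ms4a7, a membrane protein of macrophages, held 3.58, 3.18 and 1.18 FPKM in HF floxed libraries, against 0.48, 0.29 and 0.48 FPKM in LF knockout libraries (log2 2.52, SE 0.63, edgeR unadjusted p = 0.002). For both, HF floxed and LF knockout libraries did not overlap. LF floxed libraries held 0.84, 0.86 and 3.48 FPKM of Cd207, and 0.53, 0.38 and 1.38 FPKM of Ms4a7. In both genes LF floxed replicate 3 lay above HF floxed replicate 3. Markers of resident Kupffer cells were mixed, with 9 of 15 higher, a median of 0.62 and none at an unadjusted p under 0.05. The median was 0.36 without LF knockout replicate 1 and 0.40 without HF floxed replicate 1. Clec4f, the lectin that defines Kupffer cells in mice, held 22.03, 21.22 and 14.07 FPKM in HF floxed libraries, against 18.16, 22.63 and 22.49 FPKM in LF knockout libraries (95% interval of the log2 difference -1.11 to 0.62). Vsig4, a complement receptor of resident macrophages, held 4.12, 4.02 and 6.52 FPKM in HF floxed libraries, against 6.74, 13.6 and 11.05 FPKM in LF knockout libraries. All 3 HF floxed values of Vsig4 were lower, with a log2 difference of -1.14 (SE 0.66, edgeR unadjusted p = 0.111). Both genes belong to the 6 lower members of the list. Of the 9 higher members, Adgre1 and Cd68 had log2 differences of 0.98 (SE 0.54) and 1.06 (SE 0.59). Their groups overlapped, and Timd4 was level at -0.01 (SE 0.68). Summed over its 15 members, the Kupffer list ran from 225.0 to 492.0 FPKM in HF floxed and from 173.0 to 278.0 FPKM in LF knockout libraries. Summed over its 16 members, the monocyte and lipid-associated list ran from 420.0 to 944.0 FPKM in HF floxed and from 391.0 to 644.0 FPKM in LF knockout libraries. The part of cell numbers in the class II and macrophage differences was not tested.

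Most genes of the extracellular matrix had higher values in HF floxed than in LF knockout libraries, none past correction. LF knockout replicates 2 and 3 were below HF floxed replicates 1 and 2 and close to HF floxed replicate 3. Relative to the LF floxed mean, the median collagen gene stood at 1.51, 1.51 and 0.70 on the log2 scale in HF floxed libraries, against -0.2, 0.59 and 0.72 in LF knockout libraries. Of 17 collagen chains, all tested, 15 were higher in HF floxed, with a median log2 difference of 0.91 and 3 at an unadjusted p under 0.05. For this list, the other matrix lists, and the stellate cell and TSP1 lists below, the share of all genes in that direction was 2.91%. The collagen median was 0.56 without LF knockout replicate 1. Col1a1, the main chain of scar collagen, held 12.11, 11.17 and 2.95 FPKM in HF floxed libraries, against 0.57, 3.83 and 4.4 FPKM in LF knockout libraries, with 0.81, 0.93 and 0.92 FPKM in LF floxed libraries. HF floxed replicate 3 lay below LF knockout replicates 2 and 3, and the log2 difference was 1.46 (SE 0.75, 95% interval -0.19 to 3.11). Col6a2, of the beaded filament collagen, held 4.2, 4.23 and 1.92 FPKM in HF floxed libraries, against 1.0, 1.5 and 2.02 FPKM in LF knockout libraries (log2 1.05, SE 0.33, edgeR unadjusted p = 0.00854).

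Of 19 genes that fold and cross-link collagen 18 were tested, with 16 higher in HF floxed, 6 at an unadjusted p under 0.05 and a median of 0.53. Serpinh1, the collagen chaperone, held 14.8, 13.66 and 9.92 FPKM in HF floxed libraries, against 4.55, 7.54 and 7.17 FPKM in LF knockout and 3.67, 2.82 and 4.21 FPKM in LF floxed libraries. All HF floxed libraries lay above all LF knockout libraries, which in turn lay above LF floxed (log2 0.91, SE 0.23, edgeR unadjusted p = 0.0022). Loxl1, a cross-linking enzyme, held 2.54, 2.17 and 0.88 FPKM in HF floxed libraries, against 0.41, 0.73 and 0.84 FPKM in LF knockout libraries (log2 1.38, SE 0.44). Among matrix proteases and their inhibitors 15 of 20 were tested, 13 were higher and 8 had an unadjusted p under 0.05, with a median of 0.86. Timp1, a protease inhibitor, held 5.62, 3.49 and 0.43 FPKM in HF floxed libraries, against 0.4, 0.8 and 0.65 FPKM in LF knockout libraries, and HF floxed replicate 3 lay within the LF knockout range. Timp2 held 9.42, 9.79 and 5.66 FPKM in HF floxed libraries, against 3.29, 5.1 and 5.07 FPKM in LF knockout libraries, with no overlap (log2 0.78, SE 0.26). Of 22 proteoglycans and matrix glycoproteins, all tested, 21 were higher, 4 with an unadjusted p under 0.05, and the median was 0.78. Lum, a small proteoglycan, held 8.71, 10.28 and 4.41 FPKM in HF floxed libraries, against 2.14, 4.5 and 3.95 FPKM in LF knockout libraries (log2 1.03, SE 0.32).

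Stellate cell and myofibroblast markers had 15 of 16 members tested, 12 higher in HF floxed, 3 of them at an unadjusted p under 0.05, and a median of 0.51. Pdgfrb, the growth factor receptor of stellate cells, held 4.31, 3.85 and 2.0 FPKM in HF floxed libraries, against 1.43, 1.72 and 1.86 FPKM in LF knockout libraries (log2 0.90, SE 0.29, edgeR unadjusted p = 0.00944). Lrat, the retinol-esterifying enzyme of quiescent stellate cells, held 3.35, 4.76 and 2.4 FPKM in HF floxed libraries, against 1.35, 2.41 and 2.11 FPKM in LF knockout libraries. Acta2, the smooth muscle actin of activated cells, held 2.05, 1.45 and 1.61 FPKM in HF floxed libraries, against 0.73, 3.51 and 3.26 FPKM in LF knockout libraries, so its 2 highest values were LF knockout replicates 2 and 3. Of 26 genes of TSP1, its receptors and TGF-beta signalling 23 were tested, 21 were higher and 1 had an unadjusted p under 0.05, with a median of 0.40. The median was 0.22 without LF knockout replicate 1 and 0.25 without HF floxed replicate 1. The one gene was Ctgf, a matrix protein induced by TGF-beta, at 4.22, 5.46 and 2.26 FPKM in HF floxed and 0.77, 1.58 and 1.58 FPKM in LF knockout libraries (log2 1.48, SE 0.53). The receptor Cd47 and the ligand Tgfb1 had log2 differences of 0.13 (95% interval -0.2 to 0.47) and 0.37 (95% interval -0.34 to 1.08).

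The gene of smallest p in the upward direction was Olfml3 (gene 99543, chromosome 3), a secreted matrix glycoprotein. It held 9.38, 7.24 and 4.0 FPKM in HF floxed libraries, against 1.34, 2.56 and 2.63 FPKM in LF knockout libraries and 1.69, 2.2 and 2.07 FPKM in LF floxed libraries. LF knockout and LF floxed libraries were alike in level, and every HF floxed library was above both (log2 1.55, SE 0.31, 95% interval 0.87 to 2.24, edgeR unadjusted p = 0.000388, adjusted p = 0.911). Zbtb16, a zinc finger transcription factor, held 3.21, 4.55 and 1.25 FPKM in HF floxed libraries, against 0.6, 0.43 and 0.58 FPKM in LF knockout libraries (log2 2.35, SE 0.48, edgeR unadjusted p = 0.00043). Krt8, a keratin of hepatocytes and bile duct cells, held 301.66, 291.68 and 139.11 FPKM in HF floxed libraries, against 92.45, 123.34 and 119.54 FPKM in LF knockout libraries (log2 1.01, SE 0.25, edgeR unadjusted p = 0.00189). DESeq2 called Olfml3, Zbtb16 and Krt8, with adjusted p of 0.00846, 0.00376 and 0.0492. Over 32 alternatives the adjusted p of each ran up to 1, with a lowest of 0.00479 for Olfml3, 0.000686 for Zbtb16 and 0.00394 for Krt8, and each passed in 3. Pcdh7 and Veph1 were under 0.5 FPKM in every library of both groups, with log2 differences of 2.19 and 2.04. Of 9 tested fetal liver and tumour genes, 8 were higher in HF floxed. An unadjusted p under 0.05 was reached by 2, against 2.91% of all genes in that direction. Ly6d was 1 of these 2, and its values fell into separate levels. It held 315.73, 306.99 and 4.19 FPKM in HF floxed libraries, against 1.92, 13.88 and 12.22 FPKM in LF knockout libraries, so that HF floxed replicates 1 and 2 stood far above and replicate 3 within the LF knockout range.

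Cell division genes showed the same split among HF floxed libraries. All 19 were tested, 17 were higher in HF floxed and 1 had an unadjusted p under 0.05, with a median of 0.79. Of all genes, 2.91% had such a p and were higher in HF floxed. Relative to the LF floxed mean the median member stood at 1.61, 1.42 and -0.07 on the log2 scale in HF floxed libraries, against 0.22, 0.5 and 0.38 in LF knockout libraries. The median was 1.20 without HF floxed replicate 3, and 0.45 and 0.51 without HF floxed replicates 1 and 2. Mki67, a marker of dividing cells, held 1.22, 1.33 and 0.17 FPKM in HF floxed libraries, against 0.16, 0.53 and 0.46 FPKM in LF knockout libraries. Inflammatory cytokines and chemokines had 24 of 27 members tested, 21 higher and a median of 0.62, which was 0.35 without HF floxed replicate 2. At an unadjusted p under 0.05, 3 were higher and 1 lower, against 2.91% and 1.39% of all genes. The acute phase lipocalin Lcn2 held 159.44, 151.67 and 45.8 FPKM in HF floxed libraries, against 10.59, 37.24 and 37.88 FPKM in LF knockout and 1.63, 6.89 and 4.37 FPKM in LF floxed libraries. All LF knockout libraries lay between the HF floxed and LF floxed ones (log2 1.94, SE 0.63, edgeR unadjusted p = 0.0103). HF knockout libraries held more Lcn2 than any of these, at 797.17, 707.42 and 293.05 FPKM.

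The 2 smallest p-values of the comparison belonged to genes lower in HF floxed than in LF knockout livers. Phlda1 (gene 21664, chromosome 10), a pleckstrin homology domain protein, held 15.04, 14.7 and 13.02 FPKM in HF floxed libraries, against 36.76, 90.71 and 100.48 FPKM in LF knockout libraries. LF floxed libraries held 16.6, 22.24 and 13.88 FPKM and HF knockout libraries 27.99, 26.58 and 15.64 FPKM. LF knockout libraries were the highest of all 12, replicate 1 by less than replicates 2 and 3, and HF floxed libraries were level with LF floxed ones. Phlda1 was 5.59-fold lower in HF floxed (log2 -2.48, SE 0.38, 95% interval -3.31 to -1.66, edgeR unadjusted p = 3.25e-05, adjusted p = 0.409). Foxq1 (gene 15220, chromosome 13), a forkhead transcription factor, held 2.11, 2.06 and 2.04 FPKM in HF floxed libraries, against 9.0, 13.46 and 14.41 FPKM in LF knockout libraries. In LF floxed libraries Foxq1 stood at 3.44, 5.28 and 6.23 FPKM and in HF knockout libraries at 6.85, 12.47 and 2.74 FPKM. HF floxed libraries had the lowest Foxq1 of all 12, 6.24-fold below LF knockout (log2 -2.64, SE 0.46, edgeR adjusted p = 0.636). In the fit of the 6 libraries compared, Foxq1 passed, with an edgeR adjusted p of 0.00824. DESeq2 called Phlda1 and Foxq1, with adjusted p of 5.3e-07 and 3.48e-05. These were the lowest of 32 alternatives, over which the adjusted p of both ran up to 1, with 4 passing for Phlda1 and 6 for Foxq1.

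Globin genes were lower in HF floxed than in LF knockout livers and lowest in LF floxed ones. Globin RNA in liver comes from red cells in its blood and from any local blood formation. Hbb-bs, an adult beta globin, held 282.79, 261.25 and 256.9 FPKM in HF floxed libraries, against 374.28, 570.4 and 612.15 FPKM in LF knockout and 149.8, 159.74 and 169.75 FPKM in LF floxed libraries. HF knockout libraries held 225.93, 422.95 and 443.16 FPKM. HF floxed, LF knockout and LF floxed libraries did not overlap for Hbb-bs, and HF floxed was 2.05-fold below LF knockout (log2 -1.04, SE 0.21, edgeR unadjusted p = 0.000458, adjusted p = 0.911). Hbb-bt, the other adult beta globin, held 55.68, 48.98 and 37.05 FPKM in HF floxed libraries, against 60.27, 121.52 and 115.43 FPKM in LF knockout libraries (log2 -1.16, SE 0.24). Hba-a1, an alpha globin, held 698.29, 587.11 and 465.17 FPKM in HF floxed libraries, against 695.49, 1422.12 and 1493.37 FPKM in LF knockout libraries (log2 -1.13, SE 0.27). For Hbb-bt and Hba-a1 LF knockout replicate 1 was near the highest HF floxed library, and replicates 2 and 3 were far above it. Reads of the beta globin pair, and of the alpha globin pair, may be split between near-identical copies. Of 12 erythroid genes 6 were tested, 5 being lower in HF floxed, with 2 at an unadjusted p under 0.05, against 1.39% of all genes in that direction, and the list's median was -1.12. This list does not hold Hbb-bs or Hbb-bt. Summed over it, HF floxed libraries held 1130.0, 972.0 and 795.0 FPKM and LF knockout libraries 1100.0, 2270.0 and 2430.0 FPKM. Alas2, the heme synthesis enzyme of red cell precursors, held 42.38, 38.16 and 81.25 FPKM in HF floxed libraries, against 55.84, 74.44 and 71.74 FPKM in LF knockout libraries, and the groups overlapped.

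The start regions of the beta globin pair are shown since both genes were lower in HF floxed and adult globin promoters carry CCAAT and CACCC boxes, the second of which binds the erythroid factor KLF1. The 110 bases before each start are given for GRCm38.p6, on the minus strand, at chr7:103827929-103828038 for Hbb-bs and chr7:103813924-103814033 for Hbb-bt, with matches to CCAAT and CACCC on either strand in capitals.
Hbb-bs: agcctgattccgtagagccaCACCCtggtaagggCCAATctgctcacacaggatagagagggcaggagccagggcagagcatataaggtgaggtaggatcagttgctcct
Hbb-bt: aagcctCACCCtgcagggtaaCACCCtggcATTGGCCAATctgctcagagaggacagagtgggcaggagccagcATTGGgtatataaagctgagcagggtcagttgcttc
CCAAT began 76 bases before the start in Hbb-bs and 75 in Hbb-bt, which had 2 further matches on the other strand. CACCC began 90 bases before the start in Hbb-bs, and 104 and 89 in Hbb-bt. Of the 32851 windows, CCAAT was in 20.2% and CACCC in 29.6%, so either is common.

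Slc10a2, the sodium-dependent bile acid transporter known from ileum and bile ducts, held 7.59, 8.69 and 5.88 FPKM in HF floxed libraries, against 12.68, 12.63 and 12.42 FPKM in LF knockout libraries. Its levels in LF floxed libraries were 7.18, 5.34 and 4.36 FPKM. The 3 LF knockout libraries were close to each other, replicate 1 included, and above the other 9 (log2 -0.87, SE 0.2, edgeR unadjusted p = 0.00095). Atxn2, an RNA-binding protein, held 11.03, 11.45 and 10.55 FPKM in HF floxed libraries, against 16.15, 15.29 and 15.87 FPKM in LF knockout libraries (log2 -0.61, SE 0.13). Zfp574, a zinc finger protein, held 3.89, 3.82 and 2.89 FPKM in HF floxed libraries, against 4.81, 4.98 and 5.25 FPKM in LF knockout libraries (log2 -0.60, SE 0.13). Brd3, a reader of acetylated histones, held 3.97, 4.72 and 4.36 FPKM in HF floxed libraries, against 5.21, 6.87 and 6.86 FPKM in LF knockout libraries (log2 -0.61, SE 0.15). These differences were small and the groups of each gene did not overlap.

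**Figure D4:**
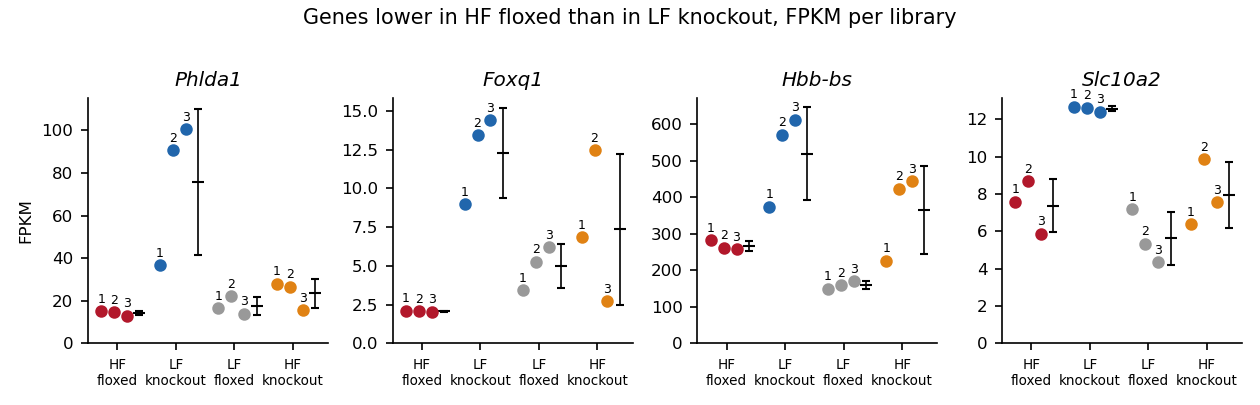
FPKM of 4 genes lower in HF floxed than in LF knockout in each library (points, numbered by replicate) with the group's mean and SD beside them (dash and bar, 3 libraries a group, axes from 0, SD bars cut at 0). LF knockout replicate 1 lies below replicates 2 and 3 for Phlda1, Foxq1 and Hbb-bs but level with them for Slc10a2 (12.68 FPKM).

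Hepatocyte genes of fat synthesis depended on LF knockout replicate 1. All 18 lipogenesis genes were tested, 11 lower in HF floxed, with a median of -0.10 that turned to 0.40 without that library and to 0.09 without HF floxed replicate 3. It was -0.19 to -0.30 without 1 of the other 4. The median member stood at -0.3, -0.3 and -1.13 on the log2 scale relative to LF floxed in HF floxed libraries, against 0.39, -0.91 and -0.98 in LF knockout libraries. Scd1, which makes monounsaturated fatty acids, held 2677.42, 3082.27 and 521.03 FPKM in HF floxed libraries, against 4811.33, 1435.43 and 1432.8 FPKM in LF knockout libraries. Both groups thus had 1 library apart, HF floxed replicate 3 at the low end and LF knockout replicate 1 at the high end. Mlxipl, the carbohydrate-responsive transcription factor, held 30.32, 29.34 and 17.1 FPKM in HF floxed libraries, against 47.23, 30.35 and 29.35 FPKM in LF knockout libraries (log2 -0.61, SE 0.24, edgeR unadjusted p = 0.0256). It was the only lipogenesis gene with an unadjusted p under 0.05, against 1.39% of all genes lower in HF floxed at such a p. The clock output gene Dbp, whose level swings over the day, held 2.44, 2.39 and 4.97 FPKM in HF floxed libraries, against 84.17, 4.24 and 5.03 FPKM in LF knockout libraries. LF floxed replicates 2 and 3 held 90.82 and 57.85 FPKM of Dbp, so LF knockout replicate 1 matched these and not its own group. Of 19 clock genes and outputs, all tested, 16 were lower in HF floxed, with a median of -0.45 that was -0.13 without LF knockout replicate 1 and -0.74 without HF floxed replicate 3. LF floxed libraries were themselves uneven, at 123.0, 298.0 and 205.0 FPKM summed over this list, with replicate 1 the lowest. The part of the time of day in these differences was not tested.

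Secreted proteins and enzymes that define hepatocytes were lower in HF floxed in all 18 of 18 tested genes, with a median of -0.25 and none at an unadjusted p under 0.05. The median was -0.48 without HF floxed replicate 3, -0.12 without HF floxed replicate 2 and -0.16 without LF knockout replicate 1. Alb, serum albumin, held 24825.8, 24582.87 and 21912.34 FPKM in HF floxed libraries, against 40501.1, 29977.58 and 30047.81 FPKM in LF knockout libraries (log2 -0.59, SE 0.44). Its groups did not overlap, and LF knockout replicate 1 was highest. Genes that female mouse livers express more had 8 of 16 members tested, 7 of them lower in HF floxed, 2 at an unadjusted p under 0.05, against 1.39% of all genes, and a median of -0.92. In limma on log2(FPKM + 0.1) that median turned to 0.04. Acot3, an acyl-CoA thioesterase, held 1.8, 1.49 and 0.29 FPKM in HF floxed libraries, against 11.47, 4.39 and 4.8 FPKM in LF knockout libraries (log2 -2.72, SE 0.98). Male-biased genes had 18 of 19 members tested and a median of 0.26 that turned to -0.91 without HF floxed replicate 3. It was 0.13 without LF knockout replicate 1, and 0.48 and 0.53 without HF floxed replicates 1 and 2. Hsd3b5, a steroid dehydrogenase of male liver, held 0.31, 0.44 and 85.67 FPKM in HF floxed libraries, against 6.53, 24.65 and 26.14 FPKM in LF knockout libraries, where LF floxed libraries held 84.2, 124.03 and 78.62 FPKM. HF floxed replicate 3 was at the LF floxed level for Hsd3b5, replicates 1 and 2 were near 0, and LF knockout libraries lay between.

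Other programs of the hepatocyte had medians near 0 or medians that moved with single libraries. Of 21 xenobiotic metabolism genes, all tested, 14 were lower in HF floxed, with a median of -0.41 that was -0.82 without HF floxed replicate 3. An unadjusted p under 0.05 was reached by 1 of the lower genes, against 1.39% of all genes in that direction. The member with an unadjusted p under 0.05 was Cyp2c55, a P450 of the Cyp2c family, at 0.57, 0.54 and 1.5 FPKM in HF floxed and 1.26, 2.76 and 2.28 FPKM in LF knockout libraries (log2 -1.28, SE 0.47, edgeR unadjusted p = 0.0187). Unfolded protein and integrated stress genes, all 21 tested, had a median of -0.13, which was -0.46 without HF floxed replicate 3, and none at an unadjusted p under 0.05. Against LF floxed, that list had medians of 0.47 in HF floxed and 0.49 in LF knockout, from comparisons that share the LF floxed libraries. Hspa5, the chaperone BiP, held 270.02, 282.32 and 487.6 FPKM in HF floxed libraries, against 336.91, 407.26 and 401.83 FPKM in LF knockout and 228.24, 189.92 and 122.85 FPKM in LF floxed libraries. Both groups lay above LF floxed for Hspa5 and overlapped each other. Cholesterol synthesis genes, all 24 tested, had a median of 0.10, which was 0.36 without LF knockout replicate 1 and -0.08 without replicate 2 or 3, and none had an unadjusted p under 0.05. The 26 respiratory chain subunits had a median of -0.03, with 10 higher and none at an unadjusted p under 0.05.

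Among signalling genes, Socs3, a feedback inhibitor of cytokine receptors that STAT3 induces, held 2.13, 1.99 and 0.95 FPKM in HF floxed libraries, against 3.57, 4.23 and 3.88 FPKM in LF knockout libraries. Its groups did not overlap (log2 -1.33, SE 0.58, edgeR unadjusted p = 0.0435). Irs1, an adaptor of the insulin receptor, held 1.44, 1.64 and 1.91 FPKM in HF floxed libraries, against 1.83, 3.14 and 3.1 FPKM in LF knockout libraries (log2 -0.75, SE 0.24, edgeR unadjusted p = 0.0083). HF floxed replicate 3 and LF knockout replicate 1 were level for Irs1. Sgk1, a kinase that glucocorticoids induce, held 4.38, 5.8 and 4.18 FPKM in HF floxed libraries, against 2.94, 2.86 and 3.17 FPKM in LF knockout libraries, and both lay below LF floxed at 8.36, 6.47 and 6.92 FPKM (log2 0.57, SE 0.21, edgeR unadjusted p = 0.0192). Srxn1, an antioxidant enzyme that NRF2 induces, held 48.69, 49.03 and 19.56 FPKM in HF floxed libraries, against 14.86, 21.68 and 20.03 FPKM in LF knockout libraries (log2 0.95, SE 0.3, edgeR unadjusted p = 0.00842). For Srxn1 HF floxed replicate 3 lay among the LF knockout libraries.

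Over the 41 gene lists, 699 distinct genes, the median log2 difference ran from 1.30 for MHC class II and 1.28 for monocyte and lipid-associated macrophage markers to -1.12 for erythroid genes. The order of the first 2 turned without HF floxed replicate 3 (1.43 and 1.56) and without LF knockout replicate 1 (0.99 and 1.29). Markers of other cells that the liver holds had medians at or above 0. All 6 tested cholangiocyte markers were higher in HF floxed, with a median of 0.48 (0.73 without LF knockout replicate 3) and none at an unadjusted p under 0.05. Of 13 tested T, NK and B cell markers, 9 were higher. An unadjusted p under 0.05 was reached by 1 of them, against 2.91% of all genes in that direction. The list's median was 0.50. That median was 0.10 without HF floxed replicate 1 and 0.21 without LF knockout replicate 1, and in the fit of the compared libraries it turned to -0.21 without LF knockout replicate 1. Neutrophil markers, of which 6 of 13 were tested, had a median of 0.40, with 4 higher. It was -0.02 without HF floxed replicate 1, 0.73 without HF floxed replicate 3, and 0.13 and 0.64 without LF knockout replicates 1 and 2. Endothelial markers, all 14 tested, had a median of 0.01.

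**Figure D5:**
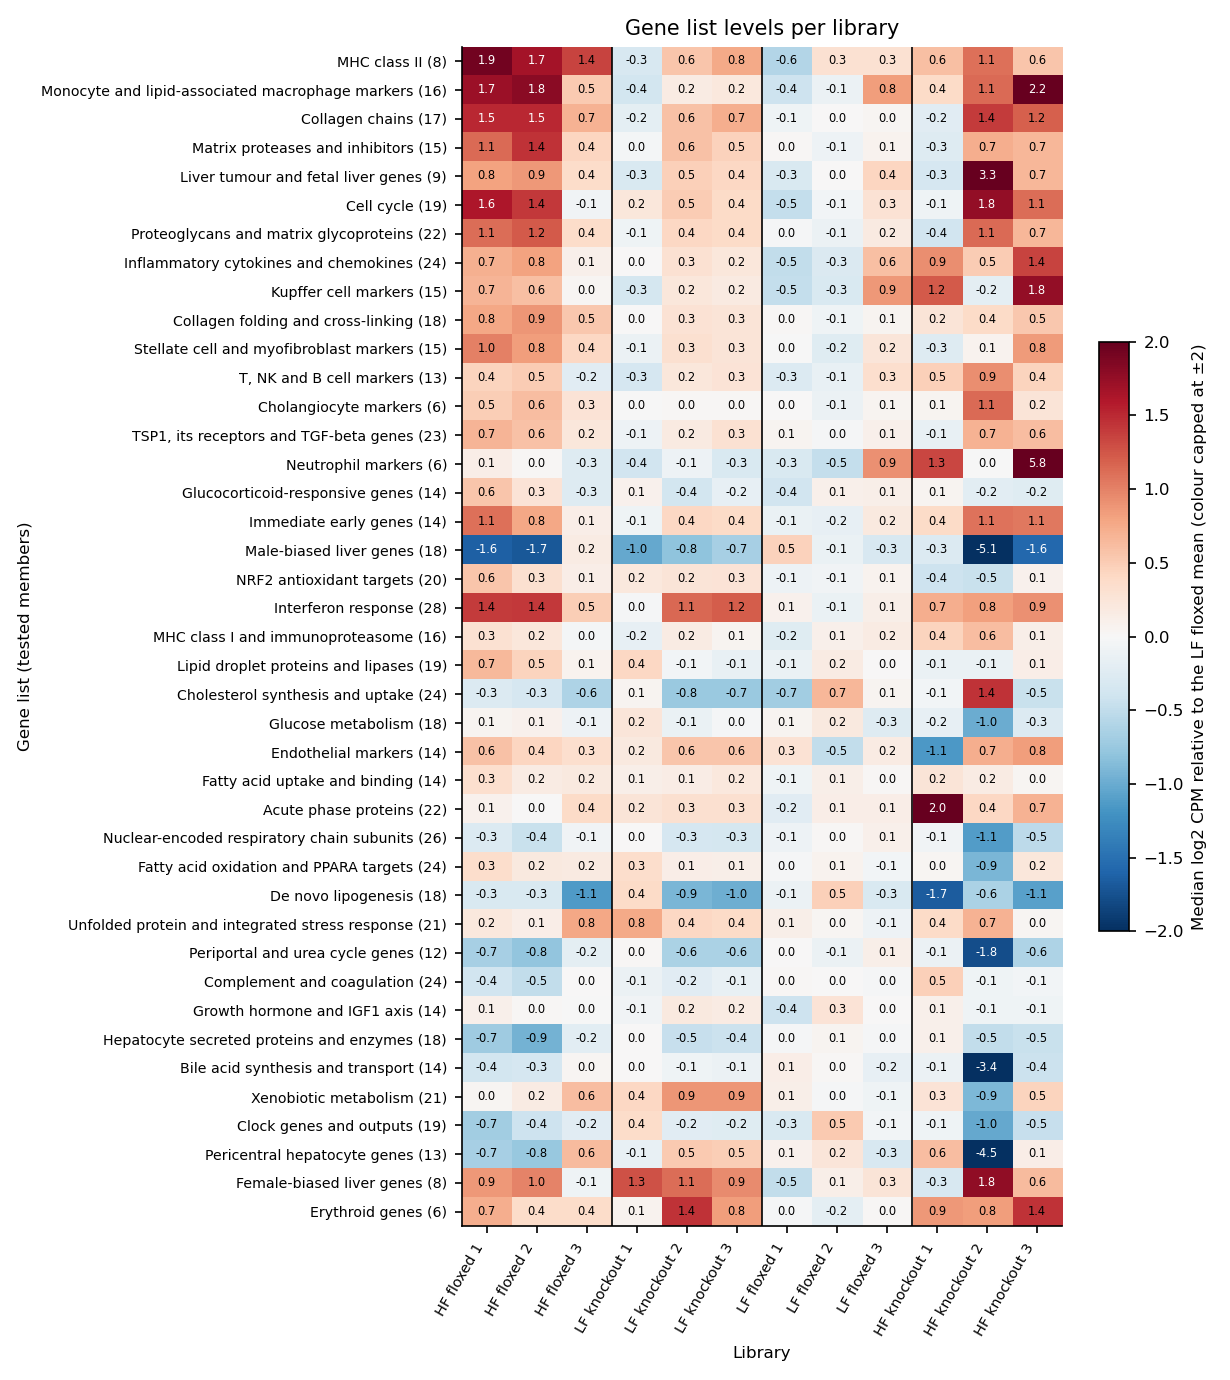
Median over the tested members of each gene list (rows, number of tested members in brackets, ordered by the difference HF floxed minus LF knockout) of log2 CPM relative to the LF floxed mean, in each of the 12 libraries (columns), with colours capped at 2 either way. In the interferon row LF knockout replicates 2 and 3 (1.15 and 1.21) lie near HF floxed replicates 1 and 2 (1.4 and 1.41), while in the MHC class II row they (0.55 and 0.75) lie below all HF floxed libraries (1.35 to 1.93).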

How the data were processed

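RNA of whole mouse liver was sequenced in 12 libraries, and groups follow the labels. Per the file headers, the deposited files hold the authors' estimated counts per gene in the column layout of RSEM, not scaled, and FPKM values scaled by the authors to gene length and library size. The submitters' processing notes name the build mm9. Aligner and counter: not given in the sources used here. The files list 14527 to 15329 genes each. Genes absent from a file were taken as 0 (3825 named genes in at least 1 file), and 1229 loci without a gene name, with 6.65 to 17.33% of counts, were left out.

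After rounding, the counts went into edgeR 4.0.16 (R 4.3.3; TMM factors, filterByExpr, quasi-likelihood F test, 1 mean per group over 12 libraries, contrast HF floxed minus LF knockout), with Benjamini-Hochberg adjustment over 12587 genes. All adjusted p-values are over all genes tested and from edgeR unless DESeq2 1.42.0 is named. Overlap of groups was counted on TMM-scaled CPM, and beside printed FPKM values it refers to those values. Standard errors and 95% intervals came from the edgeR fit. The exact permutation test of Thbs1 used log2(FPKM + 1). The code was tested on simulated counts. Members, gene lists (41) and rules were chosen with earlier results of these data known. Named were Thbs1, the 8 genes of smallest p in each direction, the 6 genes on each side most distant from LF floxed in both groups, and defining or smallest-p members of the lists. Genes with clone or serial names were skipped. Igtp, Vnn1, Fitm1, H2-Eb1 and H2-DMa were named after their values were seen. Promoter windows came from RefSeq (GRCm38.p6). Alternatives used limma 3.58.1 on log2(FPKM + 1) and log2(FPKM + 0.1), voom with sample weights, other filters and factors, the pairs averaged, and libraries left out.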

Additional observations from a re-analysis of the deposited data

Results flagged for a closer look

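Loci without a gene name, which no comparison above uses, took a mean of 13.6% of the estimated counts in HF floxed libraries (13.31 to 14.06%), against 11.58 to 13.26% in LF knockout libraries. The value stands out because it is signal outside the named genes. With these loci kept in library sizes and tests, edgeR called 0 of 13237 genes and loci, with 571 at an unadjusted p under 0.05.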

How the results depend on the processing

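The number of genes called was 0 in edgeR and in most alternatives. It was 14 with DESeq2 (4 higher, 10 lower), 1111 with voom sample weights and 1 (Foxq1) in the fit of the 6 libraries compared. Leaving out 1 library of the 12 gave 0 to 1, and leaving out HF floxed replicate 3 together with HF knockout replicate 1 gave 2. Among fits chosen after seeing the data, that of the compared libraries called 11 genes without LF knockout replicate 1 and 540 without HF floxed replicate 3, and 0 without each of the other 4. Thbs1 turned to -0.06 without LF knockout replicate 1, and to -0.05 in the fit of the compared libraries without it; its values without 1 library ran from -0.06 to 0.81 (-0.05 to 0.78 among the compared libraries). Thbs1 could not be fitted in the FPKM alternatives, whose filter it misses. Genes whose groups did not overlap were 3433 with near-identical pairs averaged, and 2408 to 4962 without 1 library, counts that grow as groups shrink. Of 7072 values of named genes over the alternatives, 97.3% kept direction and side of the threshold and 44 became significant; of 1312 list medians, 76 moved. The cause of these shifts was not tested.

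The replicate block called 0 genes (492 at an unadjusted p under 0.05, against 541 without it), and with only the 6 libraries compared it also called 0 (942, against 1139). Deviations from the group means had correlations of 0.022, 0.1 and -0.049 between same-numbered libraries. With 3 libraries a group, these values cannot decide whether the numbers pair the libraries.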
